A study of Rattus norvegicus with 82 samples.

Results

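The collagen, laminin and matrix remodelling genes described here were the genes on a rat expression array whose annotated symbol was Col, Lama, Lamb, Lamc, Mmp or Timp followed by a digit, or began with Adamts. Of the 14217 genes that the array's annotation named, 88 met this rule through 124 of 31042 probe sets, and each gene was represented by its probe set with the highest mean signal. Total RNA from rat brain was measured on 82 arrays. Of these, 80 could be placed by treatment (Sham, ADX or pADX), by time of day (AM or PM) and by region: the forebrain regions were frontal cortex, hippocampus, amygdala, septum and hypothalamus, and the brainstem nuclei were locus coeruleus and dorsal raphe. The labels do not spell out ADX, which commonly abbreviates adrenalectomy (surgery that takes out the adrenals), or Sham, which commonly names a control operation. The p of pADX, the strain, the sex, the age and the time since surgery are not stated in the labels.

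The extracellular matrix of the brain is concentrated in the meninges, around blood vessels and, in another form, around neurons. Fibrillar collagens form the tough fibres of the meninges, while type IV collagens and laminins build the basement membranes on which endothelial cells, pericytes and astrocyte endfeet rest. Matrix metalloproteinases (Mmp) and the Adamts proteases cut these proteins and the proteoglycans between them, and the tissue inhibitors of metalloproteinases (Timp) block the cutting enzymes. Glucocorticoids from the adrenal gland follow a daily rhythm and are known to lower the transcription of several collagen and Mmp genes in other tissues.

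Most groups of region, treatment and time held 2 arrays. In frontal cortex, the AM groups of Sham and of ADX held 1 each, and both hippocampal pADX arrays are labelled PM, a label that is in doubt. The labels do not say whether arrays came from separate animals or from pools, so p-values measure the spread between arrays, which may be technical. Signals were quantile normalized, set to a floor of 16 and given as log2 values, so that 4 is the floor. For treatment and time of day, the 5 regions with 12 arrays each, which leaves out frontal cortex and hippocampus, were averaged into 12 units, 1 for each treatment, time and replicate. The 2 arrays of a group correlated at 0.964 to 0.987. Before normalization 45 of 82 arrays shared a trimmed mean of 150, including all frontal cortex, septum and amygdala arrays and no hypothalamus or hippocampus array, while the others lay between 34.1 and 171. The beta-actin 3' to 5' ratio, a sign of RNA quality, ran from 1.73 to 6.03 and was highest in the dorsal raphe (3.12 to 6.03). Markers of the regions mostly followed the labels: 5 of 6 measured hypothalamic markers, 5 of 6 hippocampal, 4 of 5 septal and 4 of 4 dorsal raphe markers passed the region test and were highest in their region, against 2 of 4 in the amygdala and 3 of 5 in the locus coeruleus.

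The promoter stretches below show the gene arrangement and the sequence elements in front of collagen genes whose levels follow. They come from the RefSeq annotation of rat assembly GRCr8. Col4a1 and Col4a2, which encode the 2 chains of the main type IV collagen of basement membranes, start 76 bases apart on chromosome 16 and are read in opposite directions. The whole stretch between their start sites (chr16:84885521-84885596, + strand) is shown, with a GC box (GGGCGG, here on the other strand) in capitals. Col1a2, the gene with the widest regional range, lies on chromosome 4, and the stretch shown (chr4:33518307-33518406, + strand) ends well before its annotated start. Its capitals mark a CCAAT box on the other strand, 221 bases before the start, and a TATA box (TATAAA), 170 bases before it.
Col4a1 and Col4a2: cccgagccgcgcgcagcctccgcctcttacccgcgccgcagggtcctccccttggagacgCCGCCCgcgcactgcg
Col1a2: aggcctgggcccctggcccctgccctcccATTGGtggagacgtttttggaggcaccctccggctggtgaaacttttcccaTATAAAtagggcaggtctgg

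Promoter windows of 67 of the 88 genes were found in the RefSeq table and were searched on both strands. GGGCGG stood in 37 of them (55.2%, against 34.9% of 27457 promoters of all genes), and TATAAA in 15 (22.4%, against 14.3%). CCAAT was found in 19 (28.4%, against 37.7%) and the AP-1 site TGANTCA, bound by factors that drive many Mmp genes, in 7 (10.4%, against 7.33%). The E-box CACGTG, which clock transcription factors bind, stood in 1 (1.49%, against 6.65%). These matches describe letters in a window and are not binding sites. Of the other type IV genes, Col4a5 and Col4a6 start 1414 bases apart on chromosome X, and Col4a3 and Col4a4 start 412 bases apart on chromosome 9.

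The signal of these genes differed in kind by class. Of the 88 members, 28 were above the floor on all 80 arrays (31.8%, against 51.5% of all probe sets), 24 were at the floor on more than 40 (27.3%, the same share as among all probe sets) and 2, Mmp7 and Mmp13, were at it on all of them. The membrane-type Mmp genes Mmp14, Mmp15, Mmp16, Mmp17 and Mmp24, whose enzymes are held on the cell surface, were above the floor on every array. Of the 12 other Mmp genes, grouped here as secreted, 10 were at the floor on more than 40 arrays, and the 2 exceptions were Mmp2, a gelatinase, and Mmp23. Timp2, Timp3 and Timp4 were also above the floor throughout, and Timp1 was at it on 5 arrays. Differences in the genes near the floor are lower bounds.

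Most calls among these genes were between brain regions. A moderated F test over the 80 arrays passed in 63 of 88 members, a share of 71.6% that lay near the 65.3% of all probe sets that passed. The highest mean most often lay in the hypothalamus. Of the 63, 31 were highest in the hypothalamus, against 15.9% of all passing probe sets, and the remaining 32 were spread over frontal cortex (8, against 19.6%), dorsal raphe (7, against 14.2%), hippocampus (6, against 13.2%), locus coeruleus (6, against 16.8%), amygdala (3, against 9.68%) and septum (2, against 10.7%). In pairs of regions, 42 members were higher and 6 lower in hypothalamus than in septum, where 17.4% and 14.7% of all probe sets were called. Against the frontal cortex the counts were 39 higher and 10 lower (23.2% and 20% of all probe sets). Dorsal raphe and locus coeruleus differed in 4 members, 2 in each direction (3.13% and 3.37%). No member exceeded every other region by 1 log2 unit, a mark that 0.747% of all probe sets met. Without normalization between arrays, which left the median probe set 0.45 log2 units lower in hypothalamus than in septum, 12 of 70 passing members were highest in the hypothalamus, against 1.47% of all passing probe sets. The order turned under that scaling: 17 members were then highest in septum, 17 in amygdala and 15 in frontal cortex, against 35.3%, 20.2% and 26.3% of all passing probe sets. With arrays scaled to the common median, 28 of 63 passing members were highest in the hypothalamus (44.4%, against 10.3%).

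Of the 11 fibrillar collagen genes 9 passed, and 7 of these were highest in the hypothalamus. Col1a2, a chain of type I collagen with the widest regional range of the 88 genes, ranged in the hypothalamus from 7.18 to 8.76 with a median of 8.40, in the frontal cortex from 7.57 to 7.99 (median 7.78) and in the septum from 6.33 to 7.36 (6.68). It was lower in the hippocampus (6.22 to 7.54, median 6.56), the amygdala (4.59 to 6.94, 6.09), the dorsal raphe (4.52 to 5.89, 5.34) and the locus coeruleus (4.62 to 5.63, 5.34). Hypothalamic and frontal arrays overlapped, and no array of either fell to the levels of the brainstem nuclei. The fitted regional means spanned 3.05 log2 units, or 8.26-fold (adjusted p = 6.96e-26). Hypothalamus exceeded frontal cortex by 0.48 (SE 0.20, adjusted p = 0.0406), while dorsal raphe and locus coeruleus did not differ beyond their spread (0.06, SE 0.18, adjusted p = 1).

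Its partner chain gene Col1a1 followed the same order at the top and bottom, with fitted means of 6.71 in hypothalamus, 5.65 in septum and 4.30 in locus coeruleus, where 5 of 12 arrays were at the floor. Col3a1, the type III collagen of soft tissue, stood at 7.87 in hypothalamus and 6.89 in frontal cortex, a gap of 0.98 (SE 0.17, adjusted p = 1.58e-06), and at 5.47 in locus coeruleus. Across the 7 regional means, Col1a2 correlated with Col1a1 at r = 0.98 and with Col3a1 at r = 0.96. These describe 7 points that share the same arrays. Another Col1a2 probe set gave the same highest and lowest regions, 7.89 in hypothalamus and 5.02 in locus coeruleus.

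Not all fibrillar genes shared that order. Col2a1, the type II collagen of cartilage, was at the floor on all 10 frontal cortex arrays and on 9 of 12 septal, 10 of 12 amygdalar and 9 of 10 hippocampal arrays. It was above the floor on every array of the hypothalamus (5.41 to 6.78, median 6.05), the dorsal raphe (4.63 to 6.20, 5.28) and the locus coeruleus (4.21 to 5.98, 5.19). Hypothalamus exceeded dorsal raphe by 0.70 (SE 0.12, adjusted p = 1.34e-06). Col11a1, which joins type II collagen in fibrils, was likewise lowest in frontal cortex (4.88) and highest in hypothalamus (6.39), with septum and dorsal raphe both at 6.27. A second Col11a1 probe set was also lowest in frontal cortex (4.10) but highest in septum (5.93), with hypothalamus at 5.38. Col5a2, which regulates fibril width, ranged over 1.05 log2 units with the hypothalamus highest at 7.84.

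**Figure D1:**
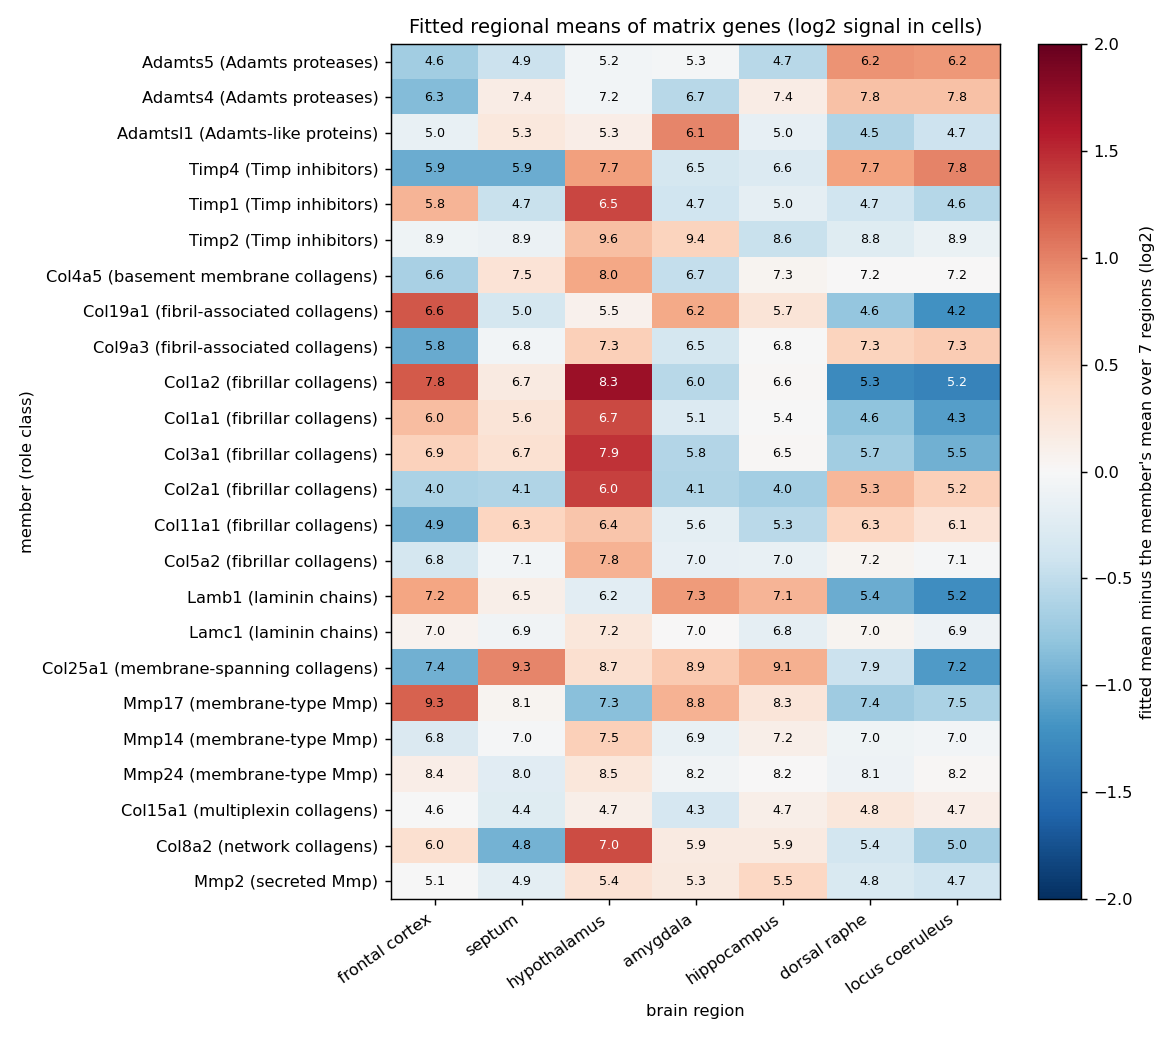
Fitted regional means of 24 matrix genes (rows, with role class) in 7 brain regions (columns), where each cell gives the fitted log2 signal and colour shows its difference from the gene's mean over the 7 regions. Col1a2, Col1a1, Col3a1 and Timp1 are reddest in the hypothalamus and red in frontal cortex. Mmp17 and Lamb1 are high in frontal cortex and amygdala, and Lamb1 also in hippocampus. Timp4, Adamts4 and Adamts5 are high in dorsal raphe and locus coeruleus, and Timp4 also in hypothalamus.

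Markers of meninges and fibroblasts, the cells that make fibrillar collagen, were also highest in the hypothalamus and lowest in the brainstem nuclei. All 11 markers of that list differed between regions, 8 highest in hypothalamus and 3 in frontal cortex, and none was at the floor on all arrays of any region. Their summed signal on the log2 scale was 10.1 to 11.6 in hypothalamus (median 11.1), 9.92 to 10.2 in frontal cortex and 9.87 to 10.4 in hippocampus, whose order differed from that of Col1a2, which was higher in frontal cortex than in hippocampus. It was 9.40 to 10.1 in septum, 9.04 to 10.1 in amygdala, 8.63 to 9.35 in locus coeruleus and 8.58 to 9.18 in dorsal raphe. Hypothalamic arrays were thus the highest but for overlaps with the frontal, septal, amygdalar and hippocampal ranges. Brainstem arrays were lowest but for an overlap with the amygdalar range. In bulk tissue more meninges on a sample and more RNA per cell cannot be told apart, and the part of these markers in the members' order was not tested. The hypothalamus also differed in scaling, since none of its arrays shared the common trimmed mean.

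**Figure D2:**
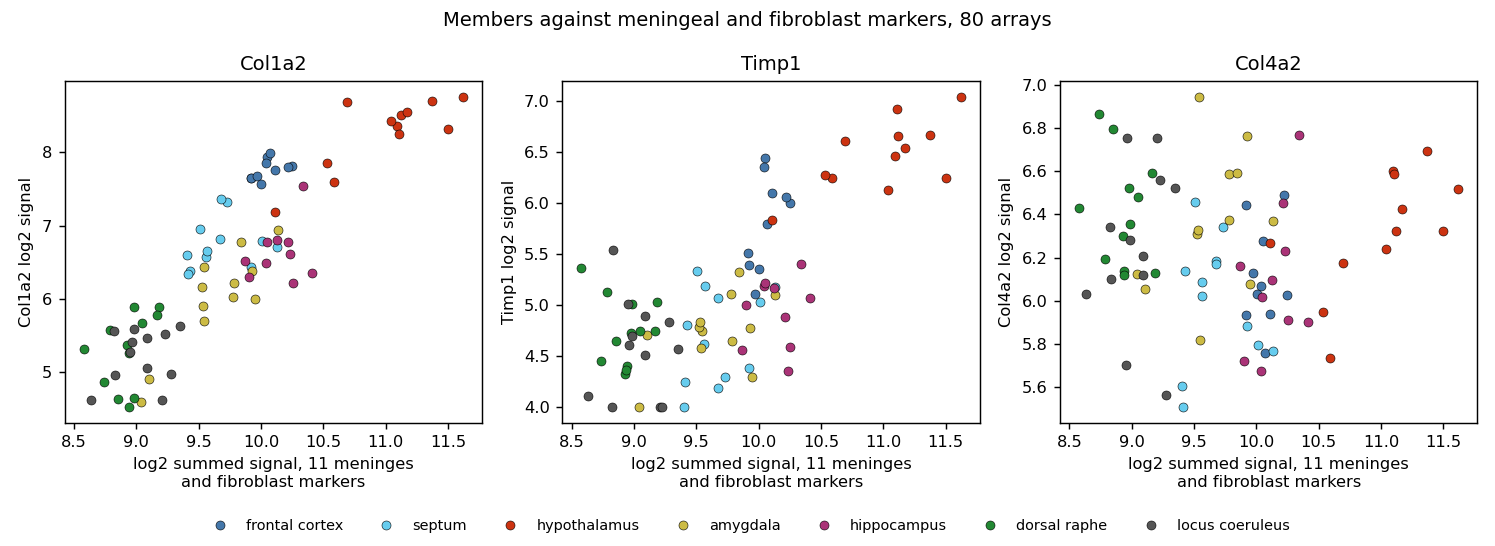
Log2 signal of Col1a2, Timp1 and Col4a2 (vertical axes) against the log2 summed signal of 11 meninges and fibroblast markers (horizontal axes) on 80 arrays, coloured by region. Col1a2 climbs with the markers from the dorsal raphe arrays (4.52 to 5.89) to the hypothalamic arrays (7.18 to 8.76), while Col4a2 lies between 5.51 and 6.95 in every region.

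Of the type IV collagens of basement membranes, Col4a1 lay between 5.29 and 6.74 on all 80 arrays and Col4a2 between 5.51 and 6.95, and their fitted means spanned 0.56 (highest in hypothalamus) and 0.41 (highest in dorsal raphe). The 7 regional means of these 2 genes, which start at either end of the stretch printed above, correlated at r = 0.50, and those of Col4a5 and Col4a6 at r = 0.76, again over 7 points that share arrays. Col4a5, a chain of another type IV network, ranged more widely, from 6.55 in frontal cortex to 7.98 in hypothalamus (adjusted p = 1.5e-23). Col4a6, its head-to-head neighbour, was at the floor on 60 arrays and was also highest in hypothalamus. Col8a2, a network collagen of the layers beneath endothelia, was widely spread within the hypothalamus (5.37 to 8.10, median 7.13) and stood 0.99 above frontal cortex (SE 0.23, adjusted p = 0.000275). Of the type VI genes, whose beaded filaments surround many cells, Col6a3 (range 1.29) and Col6a2 were highest in hypothalamus and Col6a1 (range 1.05) in frontal cortex. Col12a1, a fibril-associated collagen, and Col18a1, the vascular collagen that holds endostatin, were highest in hypothalamus, with ranges of 0.90 and 0.95, while the related Col15a1 did not pass (0.56, adjusted p = 0.0518). Other Col12a1 probe sets were at the floor on 62 and on all 80 arrays.

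Some collagens had their highest mean outside the hypothalamus. Col25a1, a membrane-spanning collagen made by neurons, ranged in the septum from 8.98 to 9.77 (median 9.36) and in the locus coeruleus from 6.50 to 7.54 (7.27), with no overlap, a difference of fitted means of 2.11. Septum, hippocampus and then amygdala followed each other at the top with gaps of 0.27 (adjusted p = 0.0666) and 0.19 (0.198), which did not pass. Col19a1, a collagen of some inhibitory synapses, was highest in frontal cortex (5.49 to 7.26, median 6.80) and was at the floor on 7 of 12 locus coeruleus arrays. Col9a2 and Col9a3, chains of the type IX collagen that coats type II fibrils, were highest in locus coeruleus, as was Col16a1. Col9a3 stood at 7.35 there, at 7.31 in hypothalamus and at 7.29 in dorsal raphe, against 5.84 in frontal cortex. The locus coeruleus did not differ from the hypothalamus beyond the spread in Col9a3 (0.04, adjusted p = 0.909) or Col16a1 (0.11, adjusted p = 0.395), nor from the dorsal raphe in Col9a2 (0.14, adjusted p = 0.55).

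Of 10 laminin chains, 8 differed between regions and 5 of these were highest in hypothalamus (Lama1, Lama2, Lama5, Lamb2 and Lamc1). Lamb1, the beta chain of the laminins found early in development, had another pattern. It lay between 7.05 and 7.53 in amygdala (median 7.21), between 6.89 and 7.47 in frontal cortex (7.15) and between 6.77 and 7.31 in hippocampus (7.10), but between 4.37 and 5.60 in locus coeruleus (5.25) and between 4.74 and 6.16 in dorsal raphe (5.50). The first 3 of these did not overlap with the brainstem nuclei, and the fitted means spanned 2.08 (4.24-fold, adjusted p = 1.37e-30). Amygdala, frontal cortex and hippocampus did not differ beyond their spread (gaps of 0.05 and 0.11, adjusted p of 0.887 and 0.601). Lamc1, the gamma chain of many laminins, ranged over 0.40. Lamb2, a beta chain of vessels and synapses, had a mean of 7.07 in hypothalamus and between 6.02 and 6.24 elsewhere, and Lama2, a chain of vascular and glial basement membranes, was 5.99 in hypothalamus and 4.87 in both septum and amygdala. Lama4, the chain of endothelial basement membranes, was highest in frontal cortex at 5.90. Lama3 and Lamc3 did not pass (adjusted p of 0.121 and 0.772).

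Of the 5 membrane-type Mmp genes all passed, of the 12 Adamts proteases 9 and of the 12 other Mmp genes 4. Among the proteases the widest regional range was that of Mmp17, a membrane-anchored enzyme that activates other proteases. It ran from 8.92 to 9.62 in frontal cortex (median 9.24), from 8.49 to 9.04 in amygdala (8.81) and reached no more than 7.61 in hypothalamus (7.26), a span of 2.02 in fitted means (4.07-fold, adjusted p = 1.01e-33). Frontal cortex exceeded amygdala by 0.49 (SE 0.09, adjusted p = 1.31e-05), while hypothalamus, dorsal raphe and locus coeruleus were neighbours whose gaps did not pass. Adamts4, which cuts the brain proteoglycans aggrecan and brevican, stood at 7.81 in dorsal raphe and 7.80 in locus coeruleus and at 6.35 in frontal cortex. Adamts5, another aggrecan-cutting enzyme, had means of 6.20, 6.16 and 4.60 in the same regions. The brainstem regions also held the highest summed oligodendrocyte markers (medians of 14.3 in dorsal raphe and 14.4 in locus coeruleus, against 13.2 in frontal cortex). These sums were close in hippocampus (14.0 to 14.2), septum (13.9 to 14.2) and hypothalamus (13.9 to 14.1), and lower in amygdala (13.1 to 13.6). Adamts4 was higher in hippocampus (7.37) than in amygdala (6.67), whereas Adamts5 was lower in hippocampus (4.73) than in amygdala (5.26). The part of these markers was not tested. Adamtsl1, an Adamts-like protein without protease activity, was highest in amygdala (5.75 to 6.48, median 6.06). Mmp14, which activates Mmp2 at the cell surface and cuts fibrillar collagen, differed by 0.77 between regions (adjusted p = 4.68e-07), with 7.54 in hypothalamus and 6.78 in frontal cortex. A second Mmp14 probe set, at the floor on 11 arrays, did not pass the region test (adjusted p = 0.245). It read 4.92 in hypothalamus, 4.90 in septum and 4.66 in frontal cortex, and was lowest in locus coeruleus (4.53).

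Other proteases had other highest regions. Mmp16, a membrane-type enzyme of brain, was highest in hippocampus (7.12) and lowest in locus coeruleus (6.24), and Mmp15 was highest in locus coeruleus (7.25) and lowest in septum and hippocampus (both 6.54). Mmp24, which is made by neurons, ranged over 0.45. Mmp2 was highest in hippocampus (5.47) and lowest in locus coeruleus (4.67, adjusted p = 5.67e-05). A second Mmp2 probe set did not pass the region test (adjusted p = 0.912) and was lowest in hippocampus (4.11). Of the Adamts genes, Adamts15 was highest in frontal cortex (5.74) and lowest in dorsal raphe (4.72), and Adamts1 was highest in hypothalamus (5.96) and lowest in amygdala (5.20). Adamts9 was highest in hippocampus (5.22) and lowest in frontal cortex (4.23). A second Adamts9 probe set did not show this order, with 4.67 in frontal cortex and 4.66 in hippocampus, and did not pass the region test (adjusted p = 0.0788). The order of regional means thus differed from gene to gene within the family, but some highest regions lay close to the next. Adamts1 read 5.92 in locus coeruleus, Mmp16 7.03 in frontal cortex and Mmp2 5.36 in hypothalamus.

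The 4 inhibitors did not share a pattern. Timp1, the inducible inhibitor, ranged in hypothalamus from 5.83 to 7.05 (median 6.51) and in frontal cortex from 5.11 to 6.44 (5.90), and its mean in the other regions lay between 4.57 and 4.96. Hypothalamus exceeded frontal cortex by 0.66 (SE 0.18, adjusted p = 0.00177), and frontal cortex exceeded hippocampus by 0.85 (SE 0.19, adjusted p = 0.000233). Timp4 was high in locus coeruleus (7.49 to 8.12, median 7.89), hypothalamus (7.31 to 7.99, 7.67) and dorsal raphe (7.30 to 8.13, 7.65). No array of these regions overlapped with the septum (5.32 to 6.40) or frontal cortex (5.50 to 6.33). The 3 high regions did not differ beyond their spread, and the step down to hippocampus was 1.07 (SE 0.10, adjusted p = 5.39e-15). Timp2, the most widely made inhibitor and a partner of Mmp14 in activating Mmp2, varied over 1.05, from 8.56 in hippocampus to 9.61 in hypothalamus. Timp3 was also highest in hypothalamus, at 9.06, and lowest in amygdala, at 7.83.

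Treatment moved none of these genes past the threshold in the averaged regions. Between ADX and Sham, limma called 0 of 88 members across the 5 regions, with 0.132% of all probe sets called. At an unadjusted p of 0.05 there were 8 (9.09%, against 9.02% of all probe sets), and the members' median change was 0.01 against 0 over all. The lowest moderated statistic belonged to Col25a1. Its 4 Sham units read 8.55, 8.48, 8.46 and 8.45, and its 4 ADX units 8.20, 8.26, 8.29 and 8.27. Every ADX unit lay below every Sham unit, with a change of -0.23 (SE 0.04, adjusted p = 0.0698) that missed the threshold. When dim probe sets were left out of the test, its adjusted p was 0.0221, and without the unit pADX PM replicate 2 it was 0.0416. Col25a1 was called in 3 of 22 alternatives and stayed uncalled in 19. Over the 22 its change ran from -0.51 to -0.13 and its adjusted p from 0.00157 to 0.769. The pADX units read 8.51, 8.48, 8.50 and 8.35. They overlapped with Sham, and ADX stood 0.21 below them (SE 0.04, adjusted p = 0.148).

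Mmp2 gave the highest statistic in the same comparison. Its Sham units read 4.90, 4.80, 4.86 and 4.75, its ADX units 5.03, 5.27, 5.20 and 5.09, and its pADX units 5.05, 4.97, 4.97 and 4.88. ADX and Sham did not overlap, at 0.32 (SE 0.06, adjusted p = 0.126), and pADX overlapped with Sham, at 0.14 (SE 0.06, adjusted p = 0.646). Col25a1 and Mmp2 were the only members whose ADX and Sham units did not overlap, 1 in each direction, where 1.87% and 1.89% of all probe sets showed this. Markers of blood and of vessels were read beside them. Of 3 measured blood markers Alas2 fell in ADX (-1.62, SE 0.20, adjusted p = 0.0304), while Hbb stood at -1.73 (adjusted p = 0.066) and Slc4a1 at -0.10 (0.947). Their summed log2 signal was 11.3 to 11.7 in the Sham units, 9.46 to 10.6 in the ADX units and 10.8 to 11.7 in the pADX units, so that ADX and Sham did not overlap. Of 9 endothelial markers 0 were called by limma and 4 had an unadjusted p under 0.05 (3 higher and 1 lower in ADX), and their summed signal was 10.6 to 10.7 in Sham and 10.7 to 10.8 in ADX. The part of blood and vessels in the members' values was not tested. Others among the 3 highest or lowest statistics were Lamb3 (0.30, adjusted p = 0.387), Timp2 (0.08, 0.427), Col5a1 (-0.17, 0.559) and Col17a1 (-0.07, 0.336), a gene at the floor on 75 of 80 arrays. Without normalization between arrays, 27 members fell in ADX and 0 rose, but so did 13671 of 31042 probe sets, and the median probe set stood at -0.21. Scaling state was unequal between treatments, since in the locus coeruleus 4 of 4 Sham and 0 of 4 ADX arrays shared the common trimmed mean.

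Between pADX and Sham, 0 of 88 members were called by limma (0.00644% of all probe sets), and 3 had an unadjusted p under 0.05 (7.7% of all). Col4a2 stood 0.14 lower in pADX (SE 0.04, adjusted p = 0.49), and between ADX and pADX it was 0.17 higher in ADX (SE 0.04, adjusted p = 0.31). That last comparison also called 0 members (0.0483% of all probe sets), with 7 under an unadjusted p of 0.05 (8.02% of all). These comparisons share units, so their values are not separate evidence. Lamc3, a laminin chain of retina and cortical surface, gave 0.29 in pADX (SE 0.13, adjusted p = 0.648), Col9a2 gave 0.22 (0.696) and Adamts5 -0.22 (0.659). Between ADX and pADX the values were 0.18 for Col5a2 (adjusted p = 0.349), -0.16 for Timp1 (0.524) and -0.13 for Timp4 (0.639).

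**Figure D3:**
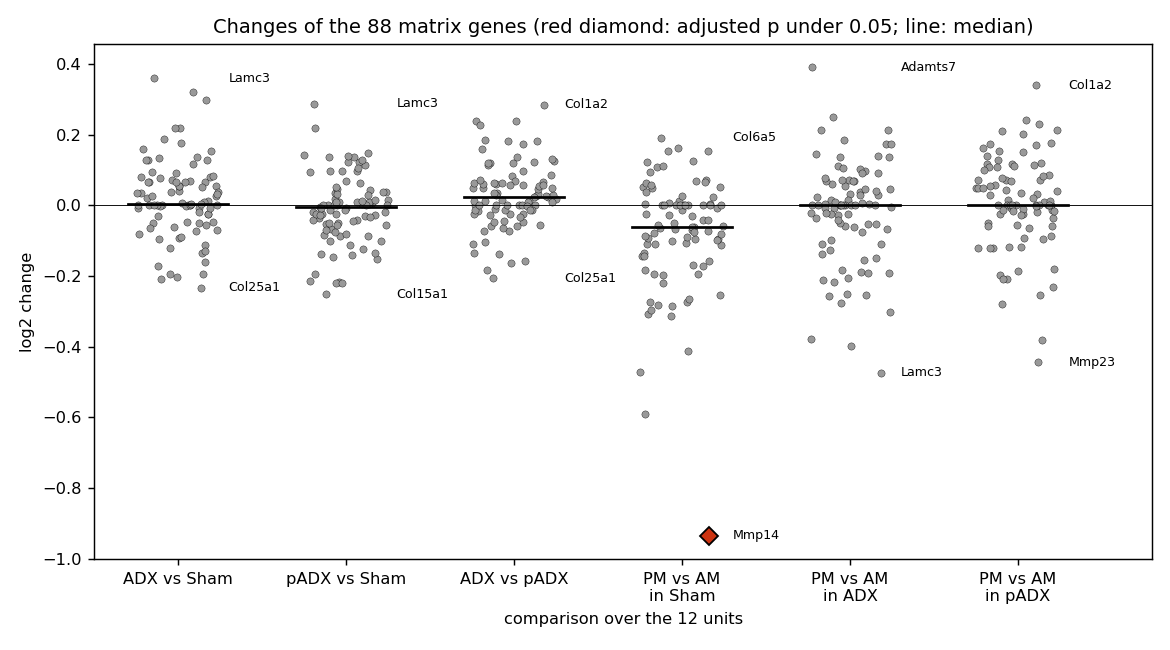
Log2 changes of the 88 genes in 6 comparisons over the 12 units, where each point is 1 gene, the line is the median of the 88, the lowest and highest genes are named and a red diamond marks an adjusted p under 0.05. Only Mmp14 between PM and AM in Sham is marked, at -0.93.

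Time of day changed 1 member, in 1 treatment. Within Sham, Mmp14 was the sole member called between PM and AM (1 of 88, with 0.0773% of all probe sets called and 0.0419% called lower), and it fell. Its AM units read 7.48 and 7.67 and its PM units 6.66 and 6.62. The groups stood far apart, at -0.93 (SE 0.08) or 1.91-fold (adjusted p = 0.0201). In ADX the AM units read 7.21 and 7.39 and the PM units 7.14 and 7.07, a change of -0.19 (SE 0.08, adjusted p = 0.4663). In pADX they read 7.11 and 7.04 in AM and 6.87 and 6.87 in PM, a change of -0.21 (SE 0.08, adjusted p = 0.744). PM lay below AM in each treatment, so that Sham AM held the 2 highest of the 12 units and Sham PM the 2 lowest. The test of the difference between treatments did not pass. The ADX change minus the Sham change was 0.74 (SE 0.11, adjusted p = 0.166; 0.0354% of all probe sets called), and the pADX change minus the Sham change was 0.73 (SE 0.11, adjusted p = 0.222; 0.0451%). Over all treatments Mmp14 stood 0.44 lower in PM (SE 0.12, adjusted p = 0.278).

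The single arrays show where the Sham difference lay. In the dorsal raphe the AM arrays read 7.67 and 7.92 and the PM arrays 6.50 and 6.57. In the hypothalamus AM read 7.71 and 8.21 against 7.28 and 6.79 in PM, and in the septum 7.35 and 7.27 against 6.63 and 6.27. In all of these both PM arrays lay below both AM arrays. The amygdala (7.23 and 7.47 against 6.38 and 6.69) and the locus coeruleus (7.43 and 7.50 against 6.50 and 6.79) showed the same order. The regions outside the averaged units did not: the hippocampus read 7.33 and 7.27 in AM and 7.53 and 7.14 in PM, and the frontal cortex 6.90 in its only AM array and 6.49 and 6.93 in PM. With every group given its own mean, the change was -1.26 in the dorsal raphe (SE 0.24, adjusted p = 0.00714), where 0.387% of all probe sets were called. It was -0.92 in hypothalamus, -0.86 in septum, -0.82 in locus coeruleus and -0.81 in amygdala (adjusted p from 0.118 to 0.288), and 0.03 in hippocampus and -0.20 in frontal cortex (both adjusted p = 1). A test of whether the Sham change differed between regions did not pass for Mmp14 (adjusted p = 0.536), and 0 of 88 members passed it (0.635% of all probe sets), with 6 under an unadjusted p of 0.05 (6.35%).

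**Figure D4:**
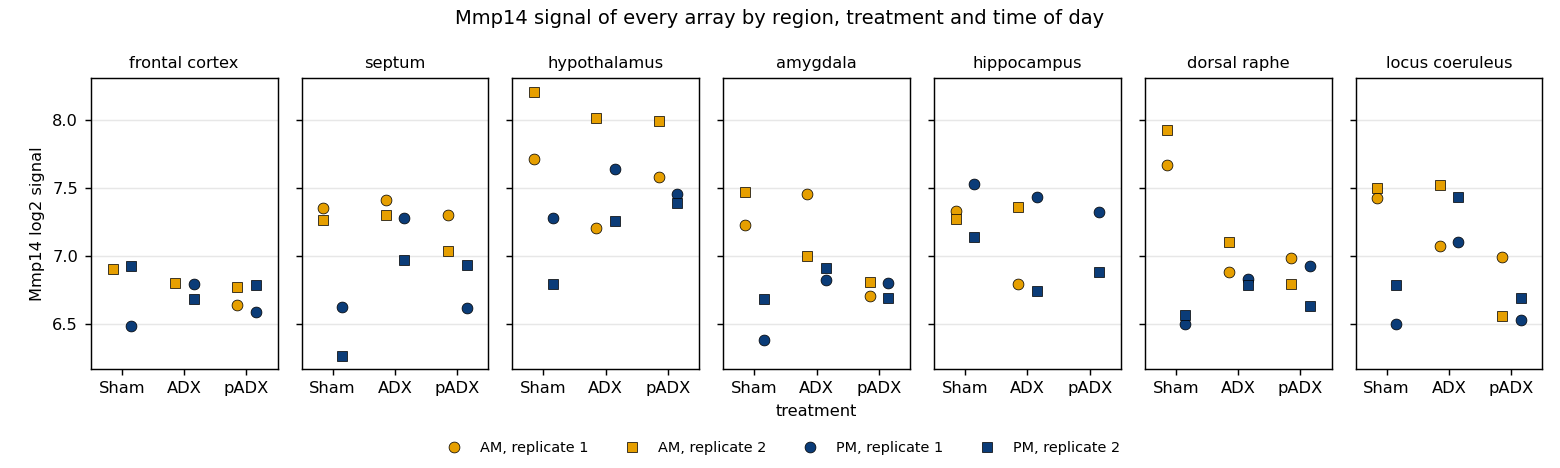
Log2 signal of Mmp14 on each of the 80 arrays, by region (panels), treatment (horizontal axis) and time of day (colour), with symbols for the replicate. In Sham, both PM arrays lie below both AM arrays in every region but the hippocampus and frontal cortex.

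Some measures moved with the Mmp14 difference. Of the Sham arrays of the dorsal raphe, those taken at PM shared the common trimmed mean and those taken at AM did not, so that scaling and time cannot be told apart there. The beta-actin 3' to 5' ratio of these arrays was 6.03 and 4.53 in AM and 4.73 and 3.16 in PM. Over the 5 regions its median was 3.43 in Sham AM and 3.30 in Sham PM. With the dorsal raphe left out the change was -0.85 (adjusted p = 0.0286), and without normalization between arrays it was -0.89 (adjusted p = 0.0303). In septum and amygdala alone, where all arrays shared 1 scale, it was -0.84 and missed the threshold (adjusted p = 0.092). The summed signal of 6 choroid plexus markers was 8.89 and 9.84 in the Sham AM units and 8.19 and 8.65 in the Sham PM units, and that of 11 meninges and fibroblast markers was 9.67 in both AM units and 9.52 and 9.57 in PM. In the dorsal raphe the choroid plexus sum was 8.16 and 8.12 on the Sham AM arrays and 8.09 and 7.87 on the Sham PM arrays, with 1 of the 6 markers at the floor on all 12 arrays, and the meninges sum was 8.74 and 9.18 in AM and 8.58 and 8.98 in PM. The part of RNA quality and of these markers in the result was not tested. Another Mmp14 probe set, at the floor on 11 of 80 arrays, stood at -0.16 (SE 0.14, adjusted p = 0.802), and the mean of both at -0.55 (adjusted p = 0.1). The call also needed the pADX units in the fit: leaving out any 1 of the 4 gave an adjusted p of 0.0535 to 0.0602 with the change as it was.

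No other member passed in a time comparison. Within Sham 8 members had an unadjusted p under 0.05 (9.3% of all probe sets), 6 of them lower in PM (against 4.83% of all probe sets lower), and 54 of 88 changes were negative, with a median of -0.06 against 0 over all probe sets. The PM units lay wholly below the AM units in 20 members and wholly above them in 6 (22.7% and 6.82%, against 16.4% and 16.1% of all probe sets). Adamts4 read 7.54 and 7.47 in AM and 7.13 and 7.29 in PM, a change of -0.30 (SE 0.06, adjusted p = 0.222). Col9a3 read 7.29 and 7.15 in AM and 6.96 and 6.92 in PM, at -0.28 (SE 0.06, adjusted p = 0.255). Neither pair of groups overlapped. Without Sham AM replicate 2, Lama3, a laminin chain of epithelia, was called too (-0.65, adjusted p = 0.0169). Col6a5 (0.19, adjusted p = 0.454), Col14a1 (0.15, 0.573) and Col17a1 (0.07, 0.443) had the highest statistics, all with arrays at the floor.

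Within ADX, limma called 0 of 88 members (0.029% of all probe sets), with 9 under an unadjusted p of 0.05 (10.5% of all). Lamc3 read 5.52 and 5.51 in AM and 4.96 and 5.13 in PM, at -0.47 (SE 0.13, adjusted p = 0.329), and Timp4 7.13 and 7.24 in AM and 6.99 and 6.84 in PM, at -0.28 (SE 0.08, adjusted p = 0.361). Adamts7 had the highest statistic, at 0.39 (SE 0.13, adjusted p = 0.404), followed by Col16a1 (0.18, 0.455). The PM and AM units of these 4 genes did not overlap, which held for 17 members lower and 12 higher in PM (18.3% and 18% of all probe sets). Within pADX limma called 0 of 88 (0.00966%), with 4 under an unadjusted p of 0.05 (6.29%). Timp3, which binds to the matrix and blocks Adamts enzymes, gave 0.24 (SE 0.09, adjusted p = 0.723), Lamc1 0.21 (0.77), Timp4 -0.19 (0.822) and Mmp23 -0.44 (0.84). Over all treatments limma called 0 of 88 (0.00966%), and 11 had an unadjusted p under 0.05 (10.4%). Timp4 had the lowest statistic there (-0.19, SE 0.05, adjusted p = 0.256), then Mmp14 and Adamts5 (-0.24, 0.368).

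No member's time difference was shown to depend on treatment. The comparison of ADX with Sham had 3 members and that of pADX with Sham 9 members under an unadjusted p of 0.05, against 6.76% and 6.68% of all probe sets. Col4a5 read 7.53 and 7.60 in Sham AM against 7.28 and 7.03 in Sham PM, and 7.28 and 7.29 in ADX AM against 7.39 and 7.53 in ADX PM. The order of the times was thus opposite, but the interaction of 0.59 (SE 0.13) had an adjusted p of 0.445. For Adamts4 it was 0.33 between ADX and Sham (SE 0.08, adjusted p = 0.479) and 0.41 between pADX and Sham (SE 0.08, adjusted p = 0.43). For Col9a3 between pADX and Sham it was 0.37 (SE 0.09, adjusted p = 0.511).

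Whether ADX acted alike in all regions was tested by an interaction over the 80 arrays. It called 2 of 88 members, Mmp17 and Mmp9, where 2.86% of all probe sets were called, and 10 had an unadjusted p under 0.05 (16.9% of all). A share of 2 in 88 is no more than that background. For Mmp17 the septum read 7.69, 7.89, 8.31 and 8.04 in Sham and 8.58, 8.47, 8.31 and 8.49 in ADX. The hippocampus ran the other way, with 8.82, 8.53, 8.25 and 8.46 in Sham and 8.23, 8.12, 8.12 and 8.10 in ADX. In the septum the highest Sham array and the lowest ADX array were level at the digits shown, and in the hippocampus every ADX array lay below every Sham array. The changes were 0.48 (SE 0.12) in septum, -0.37 (SE 0.10) in hippocampus and between -0.12 and 0.04 in the other 5 regions (interaction adjusted p = 0.0371). Neither region passed alone (adjusted p of 0.219 and 0.394). The call was lost with arrays scaled to the common median and in 9 of the 12 fits that left out 1 replicate, and the adjusted p over all alternatives ran from 0.00227 to 0.262. Of the hippocampal arrays, none shared the common trimmed mean, and that mean ran from 34.1 to 171 in ADX against 85.1 to 99.2 in Sham.

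**Figure D5:**
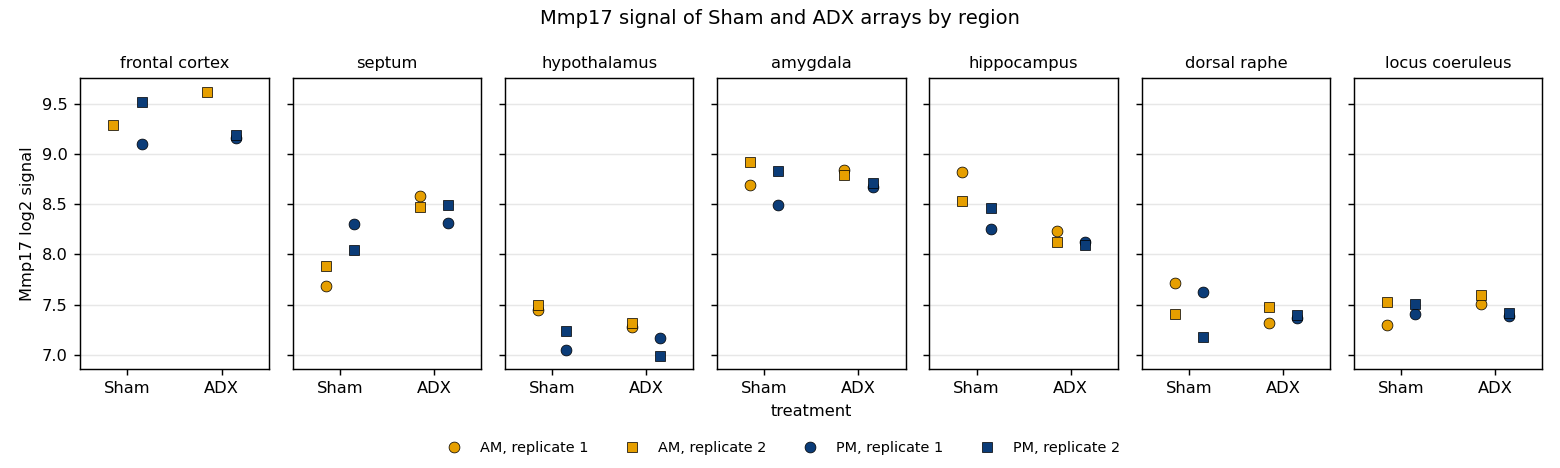
Log2 signal of Mmp17 on the Sham and ADX arrays, by region (panels), treatment (horizontal axis) and time of day (colour), with symbols for the replicate. ADX arrays lie higher than or level with Sham arrays in the septum (8.31 to 8.58 against 7.69 to 8.31) and lower in the hippocampus (8.10 to 8.23 against 8.25 to 8.82).

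Mmp9, a gelatinase made on demand by neurons and immune cells, was at the floor on 68 of 80 arrays, and its interaction (adjusted p = 0.00419) rests on values just above it. The call was lost without normalization between arrays (adjusted p = 0.057), with a floor of 32 (0.624) and without Sham PM replicate 2 (0.0683), and the filter on dim probe sets left Mmp9 out of the test. In the hippocampus 3 of the 4 ADX arrays read 5.07, 4.59 and 4.57, the other was at the floor and all 4 Sham arrays were at the floor, while in the frontal cortex the Sham arrays read 4.49, 4.10 and 4.96 and 1 of 3 ADX arrays 4.03, with 2 at the floor. All arrays of the other 5 regions were at the floor. Within single regions, 0 members were called between ADX and Sham (0.011% of all probe sets, over the 7 regions together), with 3 to 12 of 88 per region under an unadjusted p of 0.05 (8.1% of all probe sets, over the 7 together).

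Genes that work with these proteins were read from a list of 54 other matrix genes, which covers collagen assembly, basement membrane glycoproteins, proteoglycans, matrix receptors and protease control. Of these, 49 differed between regions and 27 of the 49 were highest in hypothalamus, where over all probe sets 65.3% passed and 15.9% of those were highest there. The share was greatest in collagen assembly (9 of 11 that passed) and in basement membrane and glycoprotein genes (8 of 11), and lower in proteoglycans (4 of 9), receptors (3 of 8) and protease control (3 of 10). Dcn, Lum and Fmod, counted here as proteoglycans, are also among the meninges and fibroblast markers, so the 2 lists are not separate observations. In the treatment and time comparisons 0 of 54 rose and 0 fell by limma, with 2 to 9 under an unadjusted p of 0.05, against 6.29% to 10.5% of all probe sets. The 9 were found between PM and AM within Sham, against 9.3% of all probe sets. Of these, 8 were lower in PM and 1 higher, where 4.83% of all probe sets were lower.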

How the data were processed

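Affymetrix arrays of rat brain RNA were deposited as 1 table of linear intensity values per probe set, with no log taken. The labels and file headers do not state how the authors summarised probes. From the values, 45 of 82 arrays had been scaled to a common trimmed mean. With R 4.3.3 and limma 3.58.1, all 82 arrays were quantile normalized, floored at 16 and log2 transformed, and 57 control probe sets were left out. Each of 31042 probe sets was tested, with a trend in eBayes and Benjamini-Hochberg adjustment at 0.05. Regions were compared by an F test over 80 arrays with each treatment, time and replicate as a block, and treatment and time over the 12 unit means. Scripts were tested on simulated data. Alternatives covered scaling, floor, filter, probe set choice, eBayes trend, regions averaged, a replicate block and each replicate left out.

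Region, treatment and time come from the short codes in sample titles, with which the source field disagrees for septum, dorsal raphe, locus coeruleus and hypothalamus. The titles of these regions also open with the name of another region (frontal cortex, or hippocampi for the hypothalamus). Members and lists were chosen with earlier results of these data known. Genes named with values were those called, the 3 highest and 3 lowest moderated statistics of each comparison, the top gene of each role class and Mmp14; other genes were chosen after their values were seen. The number of arrays limits the precision.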

Additional observations from a re-analysis of the deposited data

Results flagged for a closer look

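Of 120 groups of 4 to 10 samples examined, 7 (5.83%) held a sample far from the others, and chance alone marks about 1 in 20. Among the units, Timp2 read 9.16 in Sham PM replicate 2 against a mean of 9.05 in the other Sham units, Lamc3 read 5.23 in Sham AM replicate 2 against 4.82, and Col9a3 read 7.11 in pADX PM replicate 2 against 6.96 in the other pADX units. In the hippocampus, Col1a2 read 7.54 in Sham AM replicate 1 against a mean of 6.54 on the other arrays, and Col2a1 read 4.23 in Sham AM replicate 2 where all others were at the floor. In the frontal cortex, Sham PM replicate 2 stood apart for both Col25a1 (6.70 against 7.47) and Timp2 (9.36 against 8.88).

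The interaction of ADX with region passed for 2 of 88 members, against 2.86% of all probe sets. For Mmp17 (adjusted p = 0.0371) the changes were 0.48 in septum and -0.37 in hippocampus, neither of which passed alone, and the call was lost with arrays scaled to the common median and in 9 of 12 fits without 1 replicate. For Mmp9 (adjusted p = 0.00419) the values lay near the floor, and the call was lost with a floor of 32 (adjusted p = 0.624).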

How the results depend on the processing

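Of 1825 alternatives of the named genes, 1776 kept direction and call, 19 lost a call, 15 gained one and 15 reversed, and the cause was not tested. As deposited, calls numbered 27 for ADX against Sham, 4 for ADX against pADX, 28 in single regions and 8 for ADX by region, 12 members were highest in hypothalamus, and Timp2 (-0.21) and Mmp14 (-0.20) in ADX against Sham and Mmp2 (-0.0019) in ADX against pADX reversed. Without dim probe sets there was 1 call for ADX against Sham (Col25a1) and 1 for ADX by region. With a floor of 32 there was 1 for Sham time by region (Adamts8), and Col14a1 turned to 0.013 in the ADX time interaction. With all probe sets of a gene averaged, and with septum and amygdala only, calls for PM against AM in Sham were 0. Averaging turned Timp2 to -0.061 in ADX against Sham and -0.13 in PM against AM within ADX. Septum and amygdala only turned Col5a1 (0.10, ADX against Sham), Timp1 (0.080, ADX against pADX), Col4a2 (-0.043, PM against AM), Col14a1 (-0.055, within Sham), Adamts7 (-0.022, within ADX) and Timp2 (-0.10, within ADX). Leaving out the dorsal raphe, chosen after the data were seen, turned Col5a1 (0.035, ADX against Sham) and Timp2 (-0.0065, within ADX). With 1 replicate left out, Mmp14 in ADX against Sham ran from -0.0064 to 0.22. Calls then ran from 0 to 1 for ADX against Sham, from 0 to 3 for ADX by region, from 0 to 2 in single regions, from 0 to 2 for PM against AM in Sham, from 0 to 1 in ADX and in pADX, from 0 to 1 for the pADX interaction and from 0 to 3 for Sham time by region. Members differing between regions ran from 61 to 64, those highest in 1 region by 1 log2 unit from 0 to 2 (Col3a1 and Col8a2), and those highest in hypothalamus from 29 to 34.

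Same-numbered units of different treatment and time groups did not deviate together, with correlations of -0.07 to 0.06 over 15 pairs of groups. Such correlations cannot show whether the regions of 1 replicate came from the same animals, because regions were averaged within each unit. The replicate block left 1 call for PM against AM in Sham (Mmp14, adjusted p = 0.0459), and without the block 64 members differed between regions. Probe sets at the floor have only a bound, and with 2 units a group small changes could be missed.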
